A study of Mus musculus with 33 samples.

Results

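A run of 6 neighbouring ribose methylation sites in mouse 18S ribosomal RNA (rRNA) was followed across 33 RiboMeth-seq libraries. The sites were chosen by position, as all listed 18S sites in a window of 106 nucleotides that begins 5 before the first of them and ends 7 after the last. The rule gave 6 of the 108 rRNA sites that the authors listed, and 34 other listed sites lie elsewhere in 18S rRNA. The sites are SSU-Am590, SSU-Gm601, SSU-Um627, SSU-Gm644, SSU-Am668 and SSU-Gm683, named by human position, where SSU stands for the small ribosomal subunit. In the mouse sequence of the deposited sheets each lies 2 nucleotides further on, from A at 592 to G at 685.

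The study sampled whole tissue of mice in 11 groups of 3 libraries each, described as biological triplicates. In adults the sampled organs were lung, liver, kidney, heart and brain, and the same 5 organs were taken from the embryo at E16.5 (E for embryonic day). The whole head was sampled at E9.5. The labels name no treatment, and strain, sex and adult age are not given in the labels used here. The E9.5 group holds all tissues of the head and not brain alone, and E16.5 liver is a tissue of blood formation. The libraries hold rRNA ends only, so the tissue names could not be checked against marker genes.

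Ribose methylation adds a methyl group to the 2' oxygen of a nucleotide's sugar. In rRNA it is made by the enzyme fibrillarin within box C/D small nucleolar ribonucleoproteins, in which a small nucleolar RNA (snoRNA) pairs with the rRNA around the target and so selects it. The guides known in human are SNORD62 for Am590, SNORD103 for Gm601, SNORD65 for Um627, SNORD54 for Gm644, SNORD36 for Am668 and SNORD19 for Gm683. Um627 lies in one of the most conserved stretches of small-subunit rRNA, a loop close to the site where the ribosome reads the codon.

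The 6 sites are printed with 10 nucleotides on each side, because a guide snoRNA pairs with the nucleotides around its target and because the score compares each site with its neighbours. The methylated nucleotide is in capitals, the strand is that of the rRNA, and the letters are those of the nucleotide column of the deposited sheets.
SSU-Am590: uuuaacgaggAuccauuggag
SSU-Gm601: uccauuggagGgcaagucugg
SSU-Um627: gcagccgcggUaauuccagcu
SSU-Gm644: agcuccaauaGcguauauuaa
SSU-Am668: ugcugcaguuAaaaagcucgu
SSU-Gm683: gcucguaguuGgaucuuggga
The sites are 2 adenosines, 3 guanosines and 1 uridine. From one to the next, the distances are 11, 26, 17, 24 and 15 nucleotides. Am590 and Gm601 are the closest pair, and the windows from which their scores are computed share 2 nucleotides. No other pair of next neighbours shares any.

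The RiboMeth-seq score is 1 minus the number of read ends at a nucleotide divided by the weighted mean number at the 6 nucleotides on each side. A methylated nucleotide resists alkaline cleavage, so few fragments begin or end there, and the score is read as the methylated fraction, from 0 to 1. Libraries held between 463388 and 35156406 read ends on rRNA, with a median of 8896504. The median score of the tested sites in a library ranged from 0.857 to 0.972, so libraries also differed in their overall level. The third E16.5 lung library was the thinnest at every one of the 6 sites, with flanking means from 14.96 read ends per nucleotide at Gm683 to 81.7 at Gm601. The authors' overview table gives group means after a correction for barcode effects, and the groups in which it altered SSU-Am1031 (set 3), Gm683 (set 2) or neither (set 1) split the study into 3 library sets. The labels name no such sets. Set 1 holds adult brain and adult liver. Set 2 holds E16.5 brain, E9.5 head, E16.5 heart, adult kidney and adult lung. Set 3 holds adult heart, E16.5 kidney, E16.5 liver and E16.5 lung. For each tissue the adult group and the E16.5 group fall into different sets, so stage and library set cannot be told apart within a tissue. E16.5 brain and E9.5 head share a set, as do E16.5 kidney, liver and lung.

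All 6 sites were highly methylated in most libraries. Means over the 33 libraries were 0.961 at Gm601, 0.930 at Um627, 0.887 at Gm644, 0.886 at Am590, 0.882 at Am668 and 0.827 at Gm683. The median of these means was 0.887, against 0.916 over the other 18S sites and 0.926 over the 107 sites tested in all. All of these are uncorrected scores. With barcode-corrected scores, rebuilt as described below, the mean was 0.922 at Gm644 and 0.911 at Gm683. Am668 was then the lowest of the 6, and the 3 medians were not recomputed. Of the 66 group means, 42 were at 0.9 or above. The nucleotides between the sites scored low. The window's 106 nucleotides include 100 that the authors did not list, and these had a median score of 0.104. None of them reached a mean of 0.75, whereas the lowest listed site had a mean of 0.827. The highest unlisted nucleotide was G at 622, with a mean of 0.599 and libraries from 0.302 to 0.806, followed by a U with 0.550. The G is 7 nucleotides before Um627, and the U is 2 nucleotides before Gm683.

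**Figure D1:**
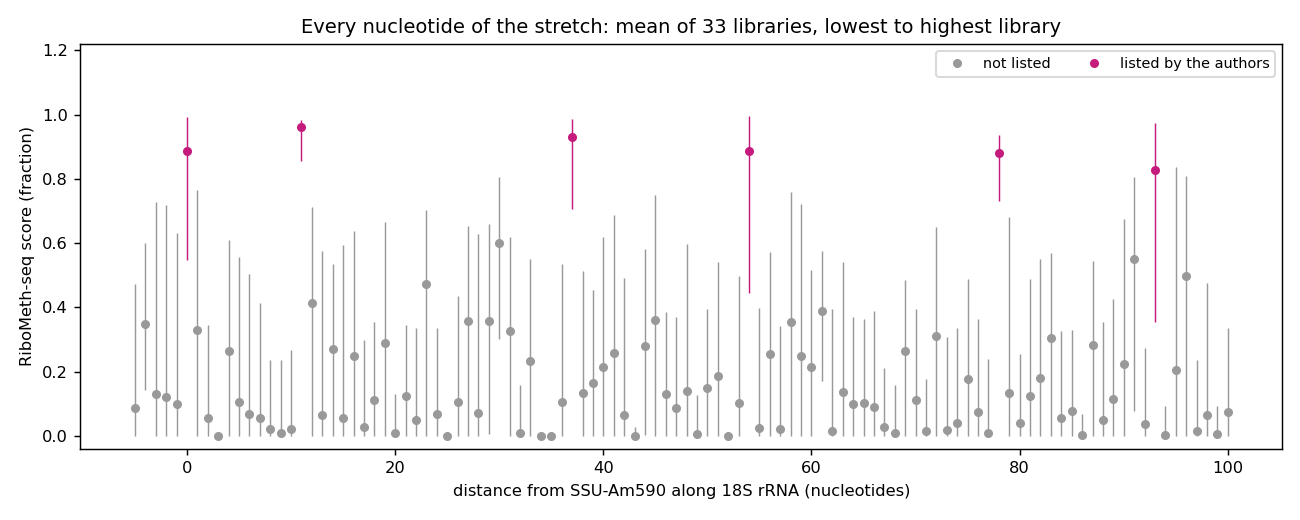
RiboMeth-seq score (fraction, vertical axis) of each nucleotide of the stretch by its distance from SSU-Am590 in nucleotides. Points are means of 33 libraries and lines run from the lowest to the highest library. The 6 listed sites (magenta) have means of 0.827 to 0.961, above every unlisted nucleotide (grey), of which the highest has a mean of 0.599.

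The 6 sites varied in 3 ways. At Am590 and Gm601 some groups differed beyond the spread of the 3 libraries of a group. For Gm601 the differences with stage were lost in several of the alternative settings given below. At Gm644 and Gm683 that spread was wide, with a pooled standard deviation (SD) within groups of 0.127 and 0.137. It was 0.0380 at Am590, 0.0154 at Gm601, 0.0589 at Um627 and 0.0470 at Am668. At Um627 and Am668 no difference was called. Differences between groups were tested with limma in 1 fit of all 33 libraries, and a site was called where its p-value, adjusted by Benjamini-Hochberg over the 107 tested sites, was under 0.05. Um627 passed in the mean over tissues on an arcsine scale (adjusted p = 0.0349), and Am668 passed in liver without a variance trend (0.0499) and with a replicate block (0.0288). All 6 sites passed the minimum of 10 flanking read ends per nucleotide in every library. Only Am590 and Gm601 passed a minimum of 50.

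**Figure D2:**
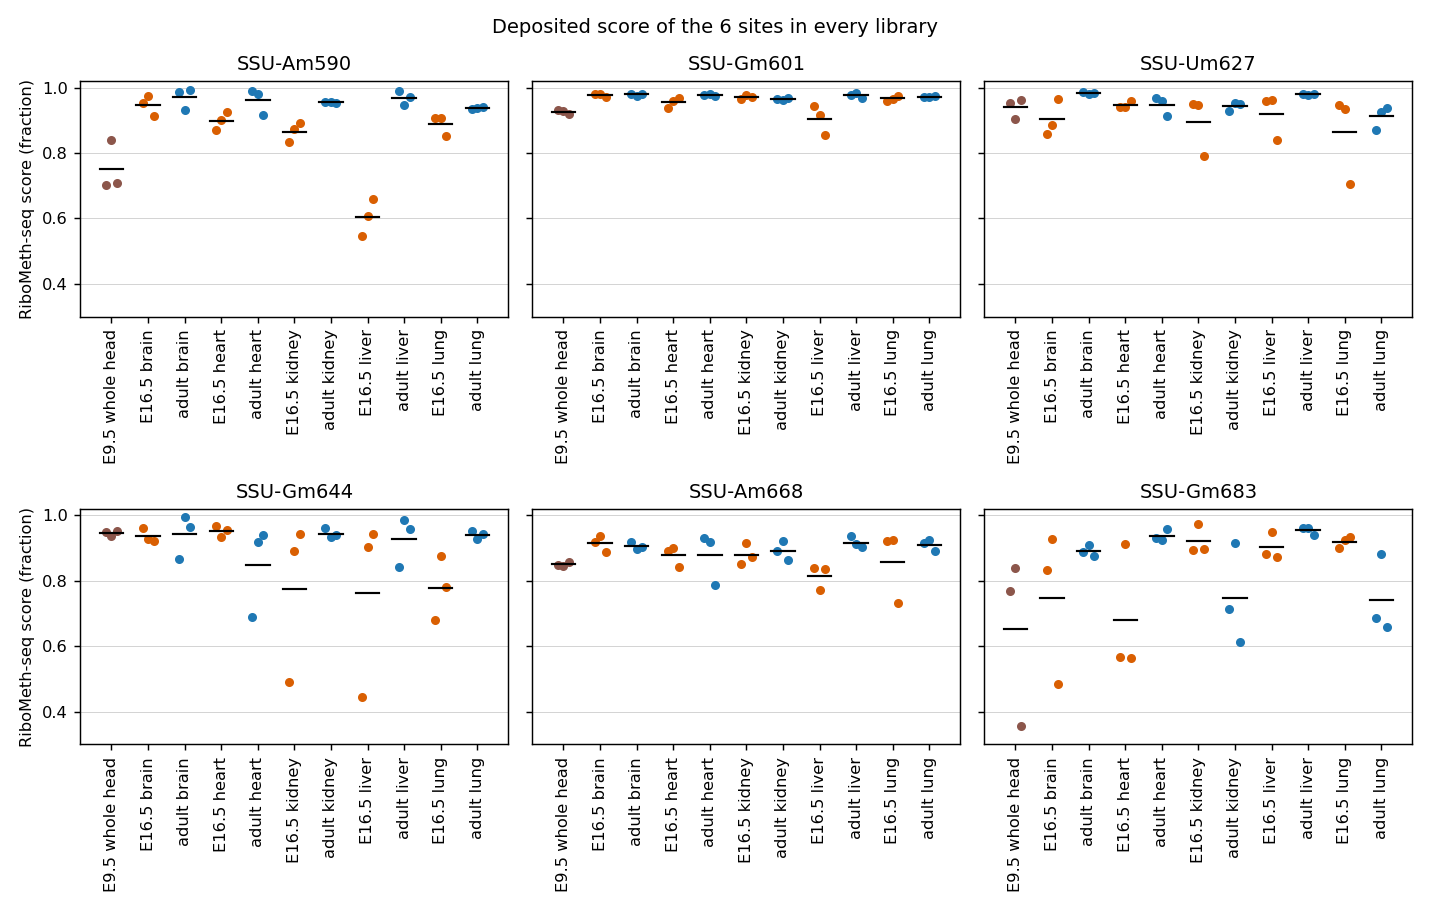
Deposited RiboMeth-seq score (fraction) of the 6 sites in each library, in columns by group (E9.5 head brown, E16.5 orange, adult blue). Points are libraries 1, 2 and 3 from left to right and lines are group means. Am590 lies at 0.547 to 0.658 in E16.5 liver and at 0.704 to 0.839 in E9.5 head, whereas Gm644 and Gm683 spread widely within some groups.

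At Am590 every adult library scored above 0.9, and the lowest group means were those of E16.5 liver and E9.5 head. The 15 adult libraries lay between 0.917 and 0.993. Adult brain scored 0.988, 0.931 and 0.993. Adult heart scored 0.990, 0.981 and 0.917, and adult liver 0.989, 0.945 and 0.973. Adult kidney scored 0.955, 0.957 and 0.954, and adult lung 0.934, 0.937 and 0.939. Adult tissues thus overlapped one another from brain to liver and heart, and kidney and lung were the tightest groups.

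In the E16.5 embryo, Am590 scored 0.954, 0.974 and 0.912 in brain. It scored 0.870, 0.900 and 0.925 in heart, 0.833, 0.873 and 0.890 in kidney and 0.907, 0.906 and 0.851 in lung. In E16.5 liver the scores were 0.547, 0.608 and 0.658. All 3 E16.5 liver libraries lay below every other library of the study at this site. E9.5 head scored 0.704, 0.839 and 0.709. In order of group mean, E16.5 liver (0.604 ± 0.0556, SD, n = 3) was lowest and did not overlap the next, E9.5 head (0.751 ± 0.0766, n = 3). E9.5 head overlapped E16.5 kidney (0.865), and E16.5 kidney, lung (0.888) and heart (0.898) overlapped in turn. The groups from adult lung (0.937) and E16.5 brain (0.947) up to adult brain (0.971) also overlapped their neighbours. In bulk tissue, a lower score in every cell and a larger share of ribosomes from cells with a low score cannot be told apart.

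The E16.5 liver values rested on 119, 247 and 51 read ends at the site, where the flanking means were 263, 630 and 149. Both kinds of read end showed the low level, although not equally. From 5' ends alone the scores were 0.794, 0.660 and 0.614, and from 3' ends alone they were 0.159, 0.564 and 0.692. The lowest adult library stood at 0.937 from 5' ends and at 0.912 from 3' ends, so E16.5 liver and the adult libraries did not overlap from either.

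Averaged over the 5 tissues, Am590 was higher in adults than at E16.5 by 0.118 ± 0.0149 (standard error, SE; adjusted p = 3.5e-07, limma). Its mean was 0.959 in adults and 0.841 at E16.5. Gm601 was higher by 0.0186 ± 0.00573 (adjusted p = 0.0117, limma). Thus 2 of the 6 sites rose, none fell, and the median difference of the 6 was 0.0393. Over all tested sites 36.4% rose (39 of 107), 2 fell and the median difference was 0.0324. Of the other 34 tested 18S sites, 14 rose and 1 fell, so the share of the 6 that rose is near the background. Stage and library set overlap in this mean. In a weighted mean of the heart, kidney and lung differences, built so that additive offsets of the sets cancel, Am590 was higher in adults by 0.0669 ± 0.0204 (adjusted p = 0.0178, limma). Gm601 was not called in that weighting (0.0105 ± 0.00785, adjusted p = 0.528). When all libraries were shifted to the same median score, Am590 kept its call (0.0848 ± 0.0143, adjusted p = 3.42e-05) and Gm601 turned to -0.0149 (adjusted p = 0.145). After thinning, Gm601 was not called either (0.0195, adjusted p = 0.281). The shift to equal medians takes 0.0335 from the difference at every site, by which the library medians of adults exceeded those at E16.5.

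Tissue by tissue, the difference was called in liver and in no other tissue. Am590 was higher in adult than in E16.5 liver by 0.365 ± 0.0332 (adjusted p = 1.32e-09, limma), with all 3 adult libraries above all 3 embryonic ones. Gm601 was higher by 0.0711 ± 0.0128 (adjusted p = 7.75e-05, limma), also without overlap. At equal library medians the Gm601 difference was 0.0168 (adjusted p = 0.583), and its call was also lost after thinning (adjusted p = 0.0724) and with the 2 liver groups fitted alone (0.0881). Without the third E16.5 liver library it was 0.0462 and kept its call. These are 2 of 6 sites, where 26.2% of all tested sites rose in liver. In brain none of the 6 was called, against 5.61% of tested sites that rose. In heart none was called, against 5.61%. In kidney none was called, against 8.41%, and in lung none was called, against 14%. The unadjusted p was under 0.05 at no site in brain or lung, at 1 site in heart and at 1 site in kidney. The differences at Am590 in those tissues were 0.0239 (95% interval -0.0446 to 0.0924) in brain, 0.0646 (-0.00390 to 0.133) in heart, 0.0900 (0.0215 to 0.158) in kidney and 0.0486 (-0.0199 to 0.117) in lung. In kidney and lung all adult libraries were above all E16.5 libraries at Am590, and in brain and heart they overlapped. The kidney difference had an adjusted p of 0.0833 and passed without the second E9.5 head library, which enters the fit through the shared estimate of spread.

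The difference between adult and E16.5 itself varied between tissues. A limma F test of that variation called Am590 (adjusted p = 2.87e-05) and Gm601 (adjusted p = 0.0193), or 2 of 6 sites, against 13.1% of tested sites. In combinations of tissue differences in which the library sets cancel, both were still called (adjusted p = 0.000103 at Am590 and 0.0193 at Gm601). The Gm601 call was lost when adult liver library 1 (adjusted p = 0.0625) or 2 (adjusted p = 0.0938) was left out. It was also lost at equal library medians (adjusted p = 0.485), from 3' ends alone (0.0851) and after thinning (0.694).

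Among the 5 E16.5 tissues, Am590 (adjusted p = 6.42e-08) and Gm601 (adjusted p = 0.00049) differed by a limma F test, 2 of 6 sites against 16.8% of those tested. E16.5 kidney, liver and lung share a library set, and within these 3 tissues both sites still differed (adjusted p = 2.85e-07 and 0.000519). The Gm601 call among the 5 tissues was lost after thinning (adjusted p = 0.411) and with the E16.5 groups fitted alone (0.0916). E16.5 brain and heart share the other set, and between them neither site was called (adjusted p = 0.959 and 0.775). Among the 5 adult tissues none of the 6 sites was called, against 4.67% of tested sites, and none had an unadjusted p under 0.05. The adjusted p was 0.540 at Gm683 and 0.999 at the other 5.

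**Figure D3:**
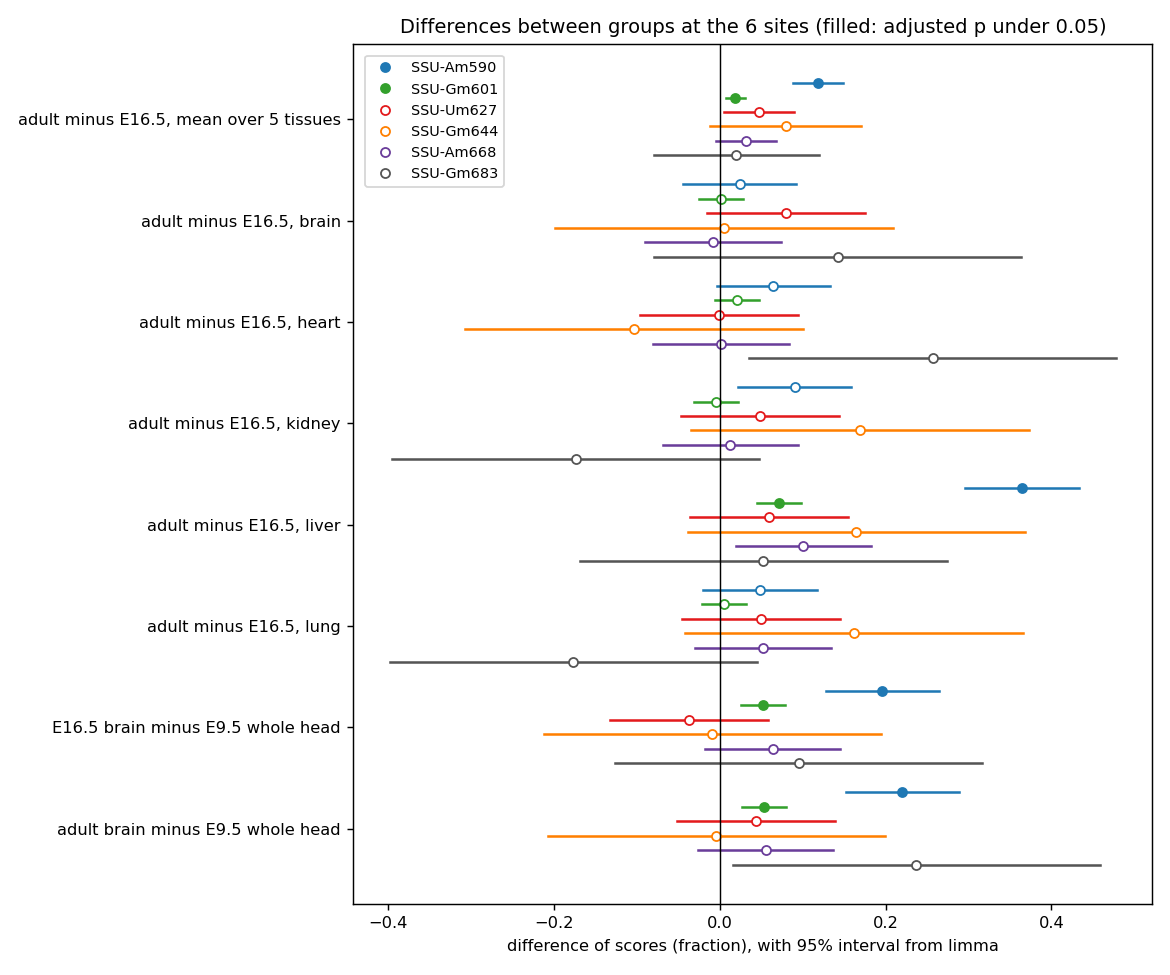
Differences of score (fraction, horizontal axis) at the 6 sites for each of 8 comparisons, with 95% intervals from the limma fit. Filled points have an adjusted p under 0.05. Am590 and Gm601 are filled in the mean over tissues, in liver and in both comparisons with E9.5 head, and Gm644 and Gm683 have the widest intervals.

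Am590 scored higher in E16.5 brain than in E9.5 head, and E16.5 and adult brain differed by less than the spread between libraries. The E9.5 group is the whole head, so stage and sampled tissue cannot be told apart in comparisons with it. The group means were 0.751 ± 0.0766 in E9.5 head, 0.947 ± 0.0313 in E16.5 brain and 0.971 ± 0.0346 in adult brain (SD, n = 3 each). E16.5 brain exceeded E9.5 head by 0.196 ± 0.0332 (adjusted p = 0.0001, limma), with no overlap. Gm601 exceeded it by 0.0524 ± 0.0128 (adjusted p = 0.00537, limma). This is 2 of 6 sites, where 6.54% of tested sites rose, and these groups belong to the same library set. The Am590 call was lost from 3' ends alone (0.234, adjusted p = 0.114), and both calls were lost with all libraries thinned to the depth of the shallowest (Am590 0.139, adjusted p = 0.0703; Gm601 0.0684, adjusted p = 0.211). The Gm601 call was also lost at equal library medians (0.0215, adjusted p = 0.634) and from 5' ends alone (0.0518, adjusted p = 0.0680). Adult brain exceeded E9.5 head by 0.220 ± 0.0332 at Am590 (adjusted p = 9.57e-06, limma) and by 0.0535 ± 0.0128 at Gm601 (adjusted p = 0.00313, limma). These 2 of 6 compare with 30.8% of tested sites that rose, and here the groups lie in different library sets. The difference at Gm601 was -0.000532 when the libraries were set to equal medians, and its call was lost after thinning (adjusted p = 0.109).

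Gm601 was the most completely and most evenly methylated of the 6 sites. Of its 33 libraries, 32 scored 0.9 or above, and the 15 adult libraries lay between 0.963 and 0.984. E16.5 liver scored 0.944, 0.915 and 0.855, and E9.5 head 0.930, 0.927 and 0.918. These were the lowest groups (means 0.905 ± 0.0455 and 0.925 ± 0.0062, SD, n = 3), they overlapped each other, and E9.5 head did not overlap the next group, E16.5 heart (0.956). E16.5 heart scored 0.939, 0.960 and 0.969. E16.5 brain scored 0.981, 0.981 and 0.970, E16.5 kidney 0.964, 0.979 and 0.970, and E16.5 lung 0.960, 0.966 and 0.976. From E16.5 heart upward every group overlapped its neighbour. The groups low at Gm601 were thus the groups low at Am590, with a range of group means of 0.0740 at Gm601 and of 0.366 at Am590.

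Across the 11 group means, the Pearson correlation of Am590 and Gm601 was 0.959. This is a description over groups that share libraries, depth and, at 2 nucleotides, the window of both scores. The listed sites with the pattern most like that of Am590 were SSU-Um121 (0.961), SSU-Um1442 (0.960) and Gm601. For Gm601 they were Am590, LSU-Um2402 of the large subunit (0.924) and SSU-Um121 (0.914). Among the 6, Am668 also correlated with Am590 (0.892) and with Gm601 (0.865). For Gm644 and Gm683 it was -0.656 over the deposited means, which hold the library effects for both sites, and -0.277 over the authors' corrected means.

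Um627 was high in every group. Adult brain scored 0.986, 0.980 and 0.983, and adult liver 0.981, 0.976 and 0.980, and these tight groups lay above the next group, E16.5 heart (0.941, 0.940 and 0.960), without overlap. They are the 2 groups of library set 1. E16.5 brain scored 0.858, 0.886 and 0.965, and E9.5 head 0.953, 0.905 and 0.963. Adult heart scored 0.967, 0.958 and 0.912, adult kidney 0.929, 0.954 and 0.949, and adult lung 0.872, 0.927 and 0.938. E16.5 kidney scored 0.950, 0.948 and 0.790, E16.5 liver 0.960, 0.961 and 0.840, and E16.5 lung 0.948, 0.934 and 0.706. In all 4 groups of set 3 the third library was the lowest. In those libraries the score from 3' ends alone was between 0.243 and 0.766, while from 5' ends alone it was between 0.843 and 0.968. The mean difference between adult and E16.5 was 0.0470 ± 0.0207 (adjusted p = 0.0733, limma). It was called from 5' ends alone (0.0378 ± 0.0114, adjusted p = 0.00593), where 67 of all 107 sites were called. It was not called from 3' ends alone (0.0635, adjusted p = 0.412) or after thinning (0.0507, adjusted p = 0.111). At equal library medians it was 0.0135 (adjusted p = 0.676), and with the library sets cancelled 0.0236 (adjusted p = 0.791).

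At Am668 the group means ran from 0.816 to 0.917. Adult brain scored 0.917, 0.897 and 0.902, adult heart 0.930, 0.917 and 0.787, and adult kidney 0.892, 0.922 and 0.862. Adult liver scored 0.935, 0.913 and 0.902, and adult lung 0.915, 0.925 and 0.892. The third adult heart library (0.787) was below every library of the other adult groups. The first adult liver library (0.935) was slightly above every library of the others. At E16.5, brain scored 0.918, 0.936 and 0.888, heart 0.891, 0.900 and 0.841, and kidney 0.850, 0.916 and 0.872. E16.5 liver scored 0.840, 0.772 and 0.836, and E16.5 lung 0.922, 0.923 and 0.731. E9.5 head scored 0.849, 0.844 and 0.858. E16.5 liver, the lowest group by mean, overlapped neither E9.5 head nor adult liver. From 5' ends alone and from 3' ends alone, E16.5 liver and adult liver did overlap. The difference between adult and E16.5 liver was 0.101 ± 0.0397 (adjusted p = 0.0555, limma). It was called (adjusted p = 0.0430, limma) with the barcode-corrected scores, which altered no score at Am668 but altered other sites of the same fit. It was also called without the third adult heart library or without any one of the 3 E16.5 lung libraries, all of which bear on it through the shared estimate of spread. It was not called at equal library medians (0.0464, adjusted p = 0.393, limma) or from 5' ends alone (0.0449, adjusted p = 0.312). Nor was it called from 3' ends alone (0.104, adjusted p = 0.590) or after thinning (0.121, adjusted p = 0.172). In adult heart and E16.5 lung the third library scored 0.570 and 0.419 from 3' ends alone, against 0.898 and 0.943 from 5' ends alone.

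At Gm644 single libraries stood far below the others of their group. The first library was the lowest in adult heart (0.688, then 0.917 and 0.940), E16.5 kidney (0.491, then 0.891 and 0.943), E16.5 liver (0.446, then 0.904 and 0.942) and E16.5 lung (0.679, then 0.877 and 0.782). These are the 4 groups of library set 3. The first libraries of adult brain (0.866, then 0.995 and 0.963) and adult liver (0.841, then 0.987 and 0.958) were also the lowest of their groups. The 15 libraries of set 2 lay between 0.921 and 0.968. In the first libraries of set 3 the score was between 0.306 and 0.618 from 3' ends alone and between 0.814 and 0.945 from 5' ends alone. From 5' ends these libraries were still the lowest of their group in adult heart (0.869, against 0.912 and 0.956) and in E16.5 liver (0.814, against 0.860 and 0.819).

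At Gm683 the first and the third library were low in every group of set 2. E16.5 brain scored 0.834, 0.928 and 0.484, E16.5 heart 0.565, 0.912 and 0.564, and E9.5 head 0.767, 0.839 and 0.355. Adult kidney scored 0.713, 0.915 and 0.614, and adult lung 0.687, 0.881 and 0.659. In each of these 5 groups the second library was the highest. The other groups were tighter: adult brain scored 0.886, 0.910 and 0.875, adult heart 0.931, 0.923 and 0.957, and adult liver 0.960, 0.962 and 0.940. E16.5 kidney scored 0.894, 0.975 and 0.896, E16.5 liver 0.883, 0.949 and 0.873, and E16.5 lung 0.900, 0.925 and 0.933. In the third library of each set 2 group the score was between 0.232 and 0.619 from 3' ends alone and between 0.881 and 0.927 from 5' ends alone. The correction at Gm683 was itself used to define set 2, so its agreement with that set is not a finding.

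**Figure D4:**
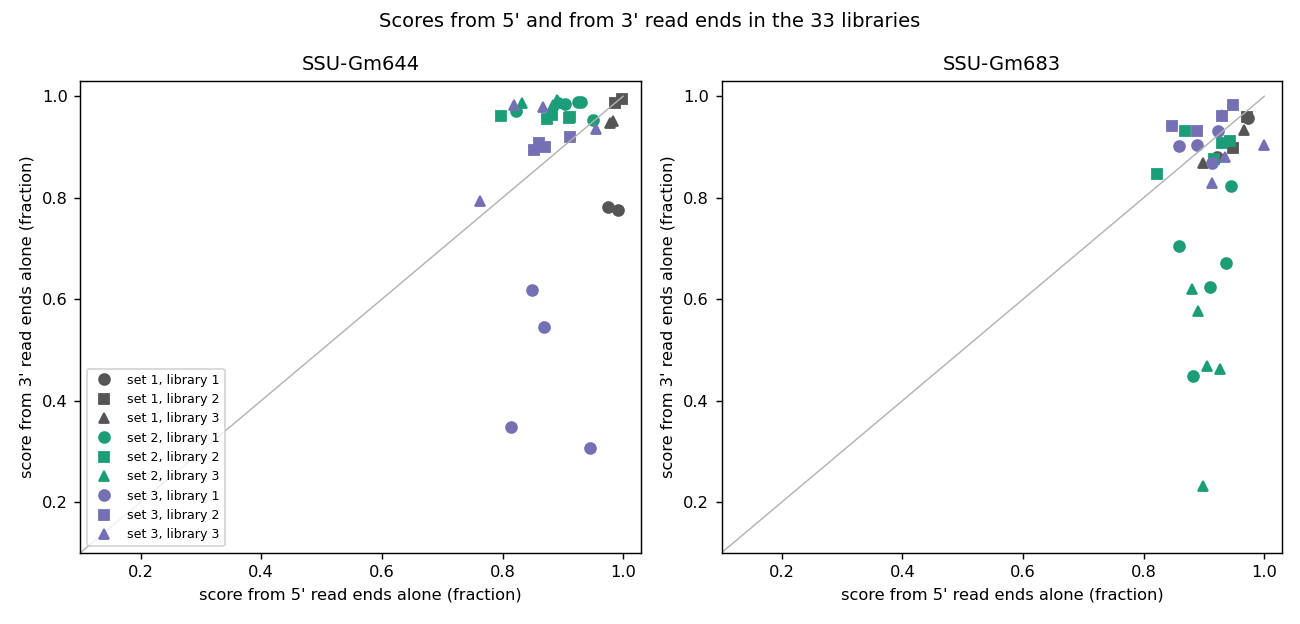
Score from 5' read ends alone (horizontal axis, fraction) against score from 3' read ends alone (vertical axis, fraction) at Gm644 and Gm683 in 33 libraries, coloured by inferred library set and shaped by library number. At Gm644 the first libraries of set 3 (0.306 to 0.618 from 3' ends) and of set 1 (0.775 to 0.782) lie below the diagonal. At Gm683 the first and the third libraries of set 2 do.

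Of the 1188 group means of the listed sites, the authors' corrected mean differs from the plain mean in 107, at 28 sites. At the 6 sites 9 of 66 means differ, all at Gm644 and Gm683. At Gm644 the correction added 0.0602 in adult heart and, at E16.5, 0.151 in kidney, 0.123 in liver and 0.0706 in lung. At Gm683 it added 0.184 in E16.5 brain, 0.212 in E9.5 head, 0.219 in E16.5 heart, 0.166 in adult kidney and 0.148 in adult lung. Every correction at these sites raised the mean. Of the 9 corrected means, 7 were rebuilt by scoring the low libraries from 5' ends alone and the others from both ends, the first library at Gm644 and the first and the third at Gm683. The other 2, Gm644 in E16.5 lung (0.850) and Gm683 in adult kidney (0.913), equal the mean of the 5' scores of those low libraries alone. Over all 3 libraries these 2 means would be 0.836 and 0.914.

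The correction rescored the low libraries from 5' ends, where they scored higher, so the narrower spread at both sites is not a separate finding. With rebuilt scores the pooled SD within groups fell to 0.0432 at Gm644 and to 0.0253 at Gm683. The authors' corrected group means ranged from 0.850 to 0.952 at Gm644, or from 0.836 with rebuilt scores of all 3 libraries, and from 0.865 to 0.954 at Gm683. Before the correction they ranged from 0.764 to 0.952 and from 0.654 to 0.954. Of the authors' 66 corrected group means of the 6 sites, 46 were at 0.9 or above. Averaged over tissues, the difference between adult and E16.5 was 0.0793 ± 0.0442 at Gm644 and 0.0199 ± 0.0481 at Gm683 before the correction. With the rebuilt scores it was 0.0252 ± 0.0153 (adjusted p = 0.173, limma) and 0.00225 ± 0.0102 (adjusted p = 0.868, limma). The correction left Gm644 unchanged in adult brain and adult liver. Their first libraries kept 0.866 and 0.841, with 0.992 and 0.975 from 5' ends alone and 0.775 and 0.782 from 3' ends alone. In liver the Gm644 difference was 0.0420 with rebuilt scores and 0.149 from 5' ends alone. The part of these 2 uncorrected libraries in the differences was not tested. The uncorrected differences at Gm683 had opposite signs between tissues, 0.257 in heart and 0.142 in brain against -0.174 in kidney and -0.177 in lung, none of them called. With the rebuilt scores they were 0.0377, -0.0425, -0.00752 and -0.0287.

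Gm644 was called in lung with the rebuilt scores, where adult lung was higher by 0.105 ± 0.0342 (adjusted p = 0.0320, limma). The uncorrected difference there was 0.162 ± 0.0989 (adjusted p = 0.279). From 5' ends alone Gm644 was higher in adults by 0.0620 ± 0.0117 in the mean over tissues (adjusted p = 5.14e-05, limma) and by 0.149 ± 0.0263 in liver (adjusted p = 2.68e-05, limma). The highest 5' means were those of adult brain (0.991) and adult liver (0.980), the 2 groups of set 1, and the part of the set in these differences was not tested.

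**Figure D5:**
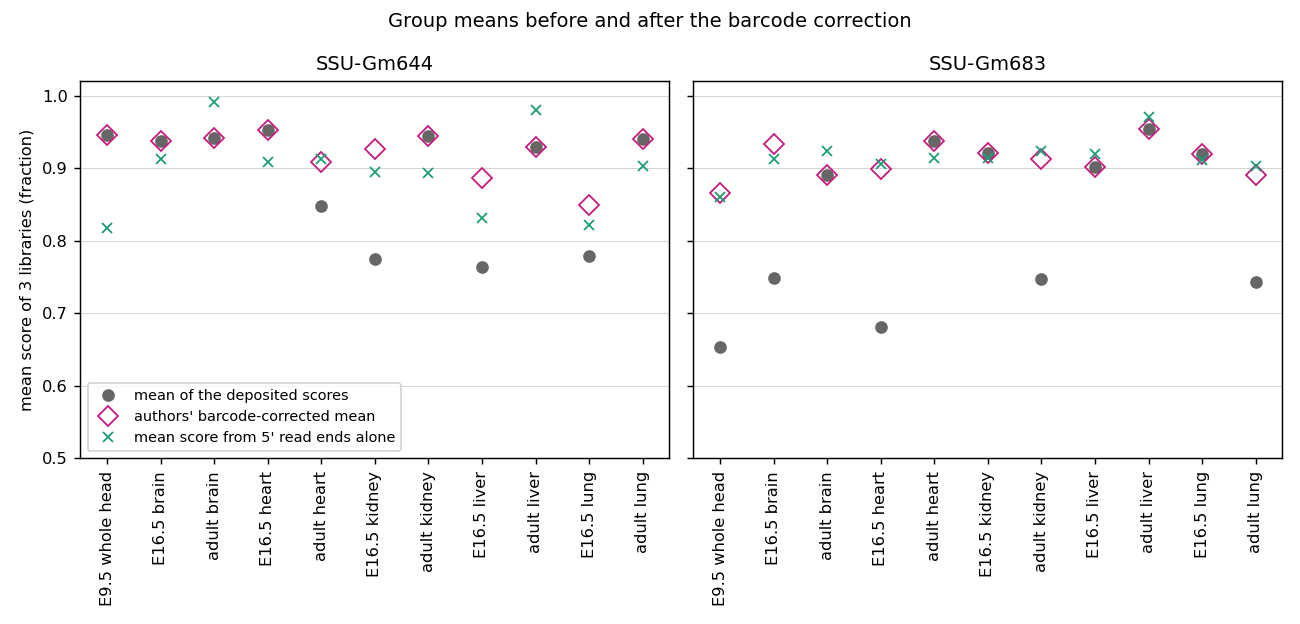
Mean score of the 3 libraries of each group (vertical axis, fraction) at Gm644 and Gm683, as the mean of the deposited scores (grey), the authors' barcode-corrected mean (magenta diamonds) and the mean score from 5' ends alone (green crosses). The correction raises 4 means at Gm644 and 5 at Gm683, and the lowest corrected means are 0.850 and 0.865.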

How the data were processed

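RiboMeth-seq libraries were made from alkali-fragmented whole-cell RNA and sequenced on an Ion Proton, per the labels' protocols. Bowtie2 2.3.4.1 and cutadapt 2.0 appear in the submitters' processing notes, and the genome build is not given in the sources used here. The authors deposited counts of 5' and 3' read ends per rRNA nucleotide and a RiboMeth-seq score per nucleotide and library as a fraction. The deposited overview holds the group mean score and its SD after barcode correction. These SDs equal population SDs, whereas SDs here are sample SDs.

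Scores rebuilt from the deposited counts (6 nucleotides on each side, weights 1 to 0.5) differed from the deposited ones by at most 5e-10 at listed sites. Groups were taken from the sheet of each group and library numbers from its column headings. Sheet means matched their own group in the overview at 84 to 104 of 108 sites and any other group at no more than 2. Sites with at least 10 flanking read ends per nucleotide in every library (107) were tested with limma 3.58.1 in R 4.3.3, by a model of 11 group means with a variance trend, tested on simulated data. Scores are ratios of counts, so site counts limit their precision.

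All 6 sites are named. The 3 sites most like each called site are those with the highest Pearson correlation over 11 group means. The members and lists were chosen with earlier results of these data known. Alternatives were equal library medians, 5' or 3' ends alone, rebuilt corrected scores, thinning, flanking minimums of 50 and of none, an arcsine scale, no variance trend, a replicate block, groups of the comparison only and each library left out. Weightings in which the inferred library sets cancel and comparisons within sets were added after seeing the data. Deviations of same-numbered libraries correlated at 0.655, 0.807 and 0.734 between E16.5 brain and E9.5 head, so same-numbered libraries varied together there. The labels name no pairs, the main fit did not use the numbers, and the cause was not tested. In every other comparison at least 1 pair correlated at under 0.1. The 2 unlisted nucleotides named were chosen after their values were seen.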

Additional observations from a re-analysis of the deposited data

Results flagged for a closer look

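The difference between adult and E16.5 varied between the 5 tissues at SSU-Am590, by a limma F test adjusted over 107 sites (adjusted p = 2.87e-05). It was 0.365 in liver and between 0.0239 and 0.0900 in brain, heart, kidney and lung, and all 5 differences were above 0. The same test called SSU-Gm601 (adjusted p = 0.0193), where the difference was 0.0711 in liver, 0.0209 in heart, 0.00512 in lung, 0.00111 in brain and -0.00506 in kidney. At both sites E16.5 liver was the lowest group. With 3 libraries a group, no single library was tested for standing apart.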

How the results depend on the processing

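SSU-Am590 kept its direction and its side of the threshold in 265 of 268 alternative results, SSU-Gm601 in 249. Most of the 268 are refits with each of the 33 libraries left out in turn. Many of these left out a library outside the comparison, where the difference itself cannot change. Gm601 was weaker in 17 results and reversed in 2. Of these, only the losses without adult liver library 1 or 2 came from leaving out a library. Of the 6 sites, 2 were called in the mean over tissues, where 41 of all 107 tested sites were called in either direction. Of the 6, 1 was called at equal library medians (46 of all 107), after thinning (26) and with the library sets cancelled (19). From 5' ends alone the count was 4, with Um627 and Gm644 (67 of all 107). On the arcsine scale it was 3, with Um627 (50 of all 107). Both shares are near those of all sites. In liver, 30 of all 107 sites were called. The count of the 6 there was 1 instead of 2 at equal medians (23 of all 107) and after thinning (21). With the groups of the comparison only it was also 1, and in each of these settings Gm601 lost its call. It was 3 from 5' ends (Gm644 added, 62 of all 107) and with rebuilt corrected scores (Am668 added, 39). Without a variance trend it was 3 as well (Am668 added). For E16.5 brain against E9.5 head it was 1 at equal medians (8 of all 107), 1 from 3' ends (3) and 0 after thinning (6). From 5' ends it was 3 (Am590, Gm644 and Am668, with 26). For adult brain against E9.5 head it was 1 at equal medians (13) and after thinning (18). From 5' ends it was 3 (Gm644 added, 62). For the variation between tissues it was 1 at equal medians (8), from 3' ends (4) and after thinning (4). From 5' ends it was 3 (Gm644 added, 22). Among E16.5 tissues it was 1 after thinning, 1 with those groups only, 3 from 5' ends (Gm644 added) and 0 between brain and heart. These counts were not compared with all sites. Where none was called, 5' ends gave 1 in brain (Um627, 5 of all 107) and 1 in kidney (Am590, 21). They also gave 1 in lung (Gm644, 23) and 1 among adult tissues (Gm644, 10). The arcsine scale gave 1 in kidney (Am590, 16), and rebuilt corrected scores gave 1 in lung (Gm644, 22). Gm601 reversed at equal medians to -0.0149 in the mean over tissues and to -0.000532 between adult brain and E9.5 head. In the mean over tissues, equal medians take 0.0335 from the difference at every site, more than the 0.0186 at Gm601. What set the library medians apart was not tested. Leaving out each library gave 0 to 1 in kidney, 1 to 3 for the variation between tissues, and 2 to 3 in the mean over tissues, in liver and between adult brain and E9.5 head. Without adult heart library 3 or any 1 of the E16.5 lung libraries Am668 joined in liver, without E9.5 head library 2 Am590 was called in kidney, and without adult liver library 1 or 2 Gm601 was lost from the variation between tissues. Without E16.5 brain library 3 or E16.5 lung library 1 or 2, Um627 joined in the mean, without E9.5 head library 2 Gm683 joined against adult brain, and without E16.5 heart library 2 it joined in the variation between tissues. A replicate block, with effects of the library number common to all 33 libraries, gave 2 for E16.5 brain against E9.5 head (adjusted p = 0.000111 and 0.00649, limma). The block is not a test of pairs within these groups. In other comparisons the block gave 3 in liver (Am668 added). It gave 3 between adult brain and E9.5 head and for the variation between tissues (Gm683 added in both). At a minimum of 50 flanking read ends, 62 sites and 2 of the 6 were left to test.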
